A study of Mus musculus with 18 samples.

Results

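The 10 genes described here belong to the NRF2 pathway, the main transcriptional response of animal cells to oxidants and electrophiles. They were chosen by name, as genes of this pathway, with earlier results of these data known: Nfe2l2, Keap1, Hmox1, Nqo1, Gclc, Gclm, Txnrd1, Srxn1, Prdx1 and Akr1b8. All 10 were present among the 13104 genes of the table of mouse embryonic stem cells (ESCs) and among the 13717 genes of the table of epiblast-like cells (EpiLCs), and 12410 genes were in both tables. The RNA came from 12 libraries, 3 in each of 4 groups: ESCs given the vehicle (ethanol in culture medium), ESCs given Δ9-tetrahydrocannabinol (Δ9-THC, the psychoactive compound of cannabis) at 100 nM, and EpiLCs derived from ESCs under the same continuous regimen, with the vehicle or with 100 nM Δ9-THC. ESCs correspond to the naive inner cell mass of the blastocyst and EpiLCs to the early post-implantation epiblast. The cells of all groups carry fluorescent Blimp1 and Stella reporters of germ cell fate, and within a cell type vehicle and exposed cultures shared the same medium. The clone sequenced is not named in the labels, and the replicates, labelled as biological, are cultures of cell lines and not embryos.

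NRF2, the protein encoded by Nfe2l2, is a transcription factor that is made and destroyed continuously. KEAP1 holds it for ubiquitination by a ligase built on CUL3 and degradation by the proteasome, and oxidants or electrophiles that modify cysteines of KEAP1 let newly made NRF2 reach the nucleus. There NRF2 pairs with small MAF proteins on antioxidant response elements and raises the transcription of enzymes that make glutathione, recycle thioredoxin and peroxiredoxin, break down haem and reduce quinones and aldehydes. Since NRF2 is regulated largely as a protein, the mRNA of its target genes is the usual transcript readout of the pathway, and none of the values below measures NRF2 protein or reactive oxygen species.

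The 5′ ends of these genes were searched for the core of the antioxidant response element, TGACNNNGC, where N is any base, in both orientations (GCNNNGTCA is the same core read on the other strand). RefSeq promoter windows of 300 bases, from 250 bases before to 50 after an annotated start on GRCm38.p6, were at hand for 8 of the 10 genes, and 5 of these 8 had a match. Of all 27025 genes with such windows, 14.0% had a match, and of all 32851 windows 12.4%. The matches are shown because they are the one feature of the binding site of NRF2 that could be read beside these expression values. They are printed in the direction of the gene with 10 flanking bases on either side, and capitals mark the core.
Nfe2l2: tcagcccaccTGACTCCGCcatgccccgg
Gclm: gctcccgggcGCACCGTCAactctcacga
Txnrd1: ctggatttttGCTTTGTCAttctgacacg
Srxn1: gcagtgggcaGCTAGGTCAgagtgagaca
Prdx1: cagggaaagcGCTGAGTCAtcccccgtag
The stretch of Nfe2l2 lies at chr2:75704885-75704913 on the minus strand, and its core begins 240 bases before the start. On the plus strand, the stretch of Gclm lies at chr3:122245413-122245441 with its core 134 to 126 bases before the start, and that of Prdx1 at chr4:116685456-116685484 with its core 133 to 125 bases before it. The core of Srxn1, at chr2:152105542-152105570, is 29 to 37 bases into the transcribed part. Txnrd1 has 3 windows, of which the one with the stretch at chr10:82859104-82859132 had a match. The windows of Keap1, Nqo1 and Akr1b8 held none, and Hmox1 and Gclc were not searched. A match is a run of letters in a short window and not a shown binding site, and no match says nothing of elements farther away.

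The total of adjusted counts per library ranged from 23427551 to 32096698. The libraries carried the marker genes of their labelled cell type: the summed level of 9 naive markers was 4356 to 4742 CPM (read counts corrected for library size, with TMM factors) in ESCs and 313 to 368 in EpiLCs, whereas the summed level of EpiLC markers was 154 to 172 CPM in ESCs, where Fgf5 and Wnt8a were not in the table, and 1750 to 2116 in EpiLCs. Of 21 markers of endoderm, mesoderm, trophoblast and fibroblasts, 6 were in the ESC table and 9 in the EpiLC table, and Sox17, Gata6, Foxa2, Cdx2 and Gata3 were in neither. Tfap2c, which pluripotent cells also express, made up most of the trophoblast sum of 139.8 to 145 CPM in ESCs. Others that were present included Eomes and Gata4, with means of 10.2 and 2.94 CPM in vehicle ESCs. Thy1 and Dab2 had means of 10.4 and 6.83 CPM in vehicle EpiLCs. The tables hold counts from which the authors had removed batch variation with ComBat-seq. After that step, libraries of the same number deviated from their group means in opposite directions, with correlations across genes of -0.987 to -0.977 for the 6 such pairs, so the libraries of a cell type are not independent although the p-values below take them as such. The SDs therefore describe the adjusted values and not the variation between cultures. Opposite deviations make a difference between the groups vary more than it would with independent libraries. In fits that take the libraries as independent, SEs and p-values therefore tend to be too small and intervals too narrow.

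Prdx1, an abundant peroxiredoxin that reduces hydrogen peroxide, had by far the highest level per length of the 10 genes in both cell types, at 364 ± 20.3 CPM per kb of exon (SD, n = 3) in vehicle ESCs and 554 ± 18.0 in vehicle EpiLCs. Txnrd1, the cytosolic thioredoxin reductase, was next with 60.0 ± 1.25 CPM per kb in ESCs and 82.4 ± 11.8 in EpiLCs, followed by Hmox1, the inducible haem oxygenase, with 44.2 ± 4.99 and 73.7 ± 5.55. In ESCs the order continued with Nfe2l2 (37.6 ± 0.577 CPM per kb), the quinone reductase gene Nqo1 (36.8 ± 4.15), the sulfiredoxin gene Srxn1 (25.0 ± 0.975), Gclm (15.6 ± 0.371) and Gclc (14.2 ± 0.422), and it ended with Keap1 (5.75 ± 0.250) and the aldo-keto reductase gene Akr1b8 (2.89 ± 0.686). The libraries of neighbours in this order were apart except for Nfe2l2 and Nqo1, which overlapped. The median of all genes was 5.41 CPM per kb in ESCs, so 9 of the 10 genes lay above it and Keap1 only narrowly.

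The order differed in EpiLCs. After Prdx1, Txnrd1 and Hmox1 came Nqo1 at 37.9 ± 0.818 CPM per kb, Gclm at 30.8 ± 0.882, Gclc at 28.9 ± 2.62, Nfe2l2 at 20.2 ± 1.76 and Srxn1 at 17.6 ± 1.57, and the last places were held by Akr1b8 at 8.11 ± 0.281 and Keap1 at 2.10 ± 0.0827. The libraries of Txnrd1 and Hmox1 overlapped, as did those of Gclm and Gclc, and the other neighbours were apart. Keap1, at 51.6% of the way up the distribution of all genes in ESCs, stood above 32.2% of genes in EpiLCs, where the median gene had 4.68 CPM per kb. Akr1b8 moved the other way, from above 35.6% of genes in ESCs to above 63.2% in EpiLCs. These lengths are those of the GENCODE M21 exons, and a gene that uses a short isoform has a higher level per length than given here.

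The sensor and the factor both had higher levels in ESCs. Positions are those of GENCODE M21 on GRCm38. In bulk RNA, fewer cells with a transcript and less of it per cell cannot be told apart. Keap1 (ENSMUSG00000003308, chromosome 9 from 21229730 to 21239361) had 28.2, 27.0 and 25.8 CPM in the vehicle ESC libraries and 10.2, 9.46 and 9.83 in the vehicle EpiLC libraries, a level 2.74-fold higher in ESCs. Nfe2l2 (ENSMUSG00000015839, chromosome 2 from 75675513 to 75704641) had 144, 140.2 and 144 CPM in vehicle ESCs and 71.2, 84.0 and 74.3 in vehicle EpiLCs, a level 1.86-fold higher in ESCs. The ratio of Nfe2l2 to Keap1, per length, was 6.55 ± 0.290 (SD, n = 3) in vehicle ESCs and 9.64 ± 1.21 in vehicle EpiLCs. Srxn1 (ENSMUSG00000032802, chromosome 2 from 152105516 to 152111376), whose product repairs overoxidised peroxiredoxins, was the third gene with all 3 ESC libraries above all 3 EpiLC libraries, at 1.42-fold.

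Both subunits of glutamate-cysteine ligase, the rate-limiting enzyme of glutathione synthesis, were higher in EpiLCs by almost the same factor. Gclc (ENSMUSG00000032350, chromosome 9 from 77754535 to 77794485), the catalytic subunit, had 54.9, 53.6 and 51.7 CPM in vehicle ESCs and 112, 117 and 97.6 in vehicle EpiLCs, a level 2.04-fold higher in EpiLCs. Gclm (ENSMUSG00000028124, chromosome 3 from 122245557 to 122270732), the modifier subunit, had 99.8, 95.5 and 99.1 CPM in vehicle ESCs and 188, 199 and 195 in vehicle EpiLCs, a level 1.98-fold higher. Their ratio therefore stayed near 1 in both cell types, with a Gclm to Gclc ratio per length of 1.10 ± 0.0417 in vehicle ESCs and 1.07 ± 0.104 in vehicle EpiLCs.

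The largest factor between the cell types belonged to Akr1b8 (ENSMUSG00000029762, chromosome 6 from 34354119 to 34368463), with 3.35, 5.40 and 4.24 CPM in vehicle ESCs and 12.2, 12.6 and 11.7 in vehicle EpiLCs, 2.81-fold higher in EpiLCs. Hmox1 (ENSMUSG00000005413, chromosome 8 from 75093621 to 75100589) was 1.67-fold higher in EpiLCs. Prdx1 (ENSMUSG00000028691, chromosome 4 from 116685544 to 116700822) was 1.52-fold and Txnrd1 (ENSMUSG00000020250, chromosome 10 from 82833951 to 82897712) 1.37-fold higher there, each without overlap of the vehicle libraries. Reads that also match processed copies of Prdx1 in the genome are missing from its counts, since uniquely mapped reads were kept. Nqo1 (ENSMUSG00000003849, chromosome 8 from 107388225 to 107403206) was level, at 50.0, 62.4 and 59.2 CPM in vehicle ESCs and 58.6, 60.1 and 57.6 in vehicle EpiLCs, and its groups overlapped. In all, 6 of the 10 genes had all vehicle EpiLC libraries above all vehicle ESC libraries and 3 had them below, against 37.1% and 38.4% of the 12410 genes in both tables. The same 6 and 3 genes were apart in the Δ9-THC libraries. The median size of the log2 ratio was 0.82 for the 10 genes and 0.48 for all genes. No test was made of these ratios, since the tables of the cell types were adjusted separately and a difference between those adjustments cannot be told apart from a difference between the cells.

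**Figure D1:**
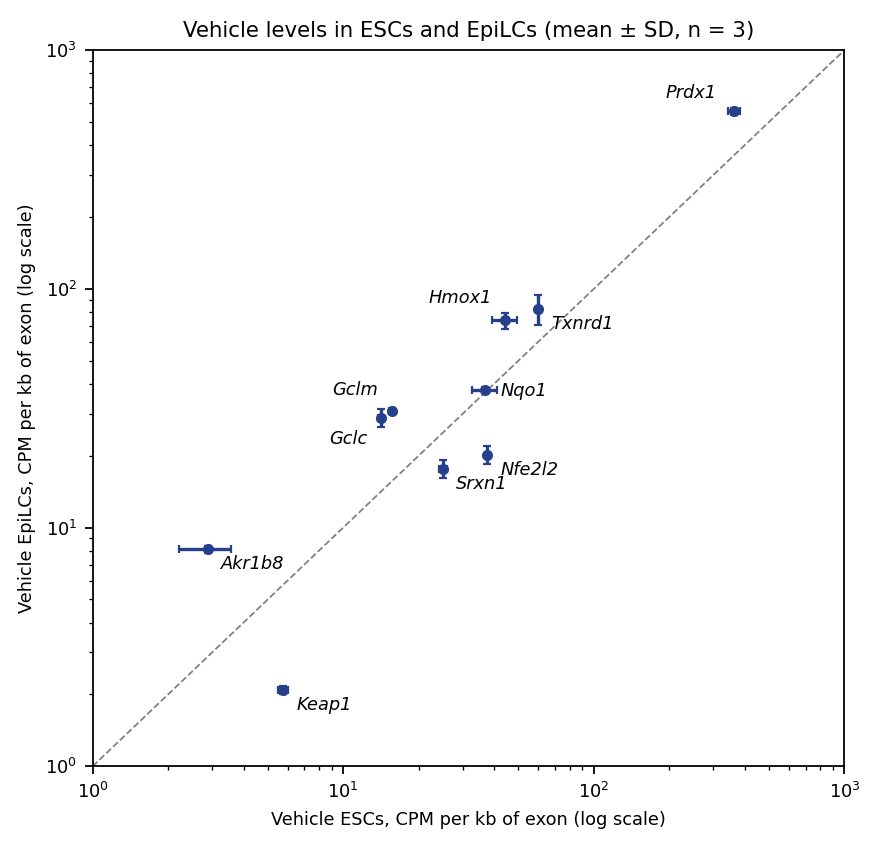
Mean level of each of the 10 genes in the vehicle libraries, in CPM per kb of exon on log axes, for ESCs (x axis) and EpiLCs (y axis), with bars of 1 SD (n = 3) and a dashed line of equal levels. Nfe2l2, Keap1 and Srxn1 lie below the line, Nqo1 on it and the other 6 genes above it, and Prdx1 stands far from the rest at 364 and 554 CPM per kb.

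In ESCs, exposure to Δ9-THC changed none of the 10 genes past the threshold. With edgeR's quasi-likelihood test, 0 of the 10 had a Benjamini-Hochberg adjusted p-value of at most 0.05, against 6.91% of the 13104 genes of the table, and 3 of the 10 had an unadjusted p-value under 0.05, against 28.7% of all genes. DESeq2 also called 0 of the 10 in ESCs, with no adjusted p-value given for Akr1b8. The median log2(fold-change) was 0.048 for the 10 genes and 0.0041 for all genes. Without Akr1b8, the 95% intervals of the other 9 genes lay between -0.31 and 0.34 on the log2 scale.

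The smallest adjusted p-value in ESCs was that of Gclm, which had 99.8, 95.5 and 99.1 CPM with the vehicle and 106, 111 and 107 with Δ9-THC. All 3 exposed libraries were above all 3 vehicle libraries, and the log2(fold-change) was 0.14 (edgeR, SE 0.032, adjusted p = 0.0541). Its partner Gclc had 54.9, 53.6 and 51.7 CPM with the vehicle and 56.1, 57.6 and 59.9 with Δ9-THC, again without overlap, with a log2(fold-change) of 0.11 (edgeR, SE 0.040, adjusted p = 0.119). Nfe2l2 was the third gene whose exposed libraries were all higher, at 148, 153 and 150.0 CPM against 144, 140.2 and 144, with a log2(fold-change) of 0.076 (edgeR, SE 0.026, adjusted p = 0.122). Its SD was 1.53% of the mean with the vehicle and 1.60% with Δ9-THC, about the counting error of 1.54% and 1.60% at these mean counts. Of all genes in the ESC table, 16.7% had all 3 exposed libraries above the vehicle libraries and 15.9% had them below, and 3 and 0 of the 10 genes did.

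Keap1 overlapped between the groups in ESCs, with 28.2, 27.0 and 25.8 CPM with the vehicle and 24.0, 25.3 and 26.5 with Δ9-THC (log2(fold-change) -0.093, edgeR, SE 0.053, adjusted p = 0.295). The ratio of Nfe2l2 to Keap1 per length had a mean of 6.55 ± 0.290 (SD, n = 3) in vehicle libraries and of 7.36 ± 0.327 in exposed libraries, and the exposed libraries, at 7.62, 7.46 and 6.99, were all above the vehicle libraries, at 6.33, 6.43 and 6.88. No test was made of this ratio, and 3 libraries against 3 cannot give an exact permutation p below 0.1. With trends in GC content and exon length removed, as described below, the log2(fold-change) in ESCs was 0.031 for Nfe2l2 and 0.029 for Keap1. In EpiLCs the ratio was lower with exposure, at 9.64 ± 1.21 in vehicle libraries and 8.34 ± 1.14 in exposed libraries, and the groups overlapped. Akr1b8, with a mean of 126 counts per vehicle library the gene with the fewest counts of the 10, had 3.35, 5.40 and 4.24 CPM with the vehicle and 3.73, 1.91 and 2.85 with Δ9-THC. Its groups overlapped, and its log2(fold-change) of -0.63 had a 95% interval of -1.27 to 0.020 (edgeR, SE 0.27, adjusted p = 0.185).

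The remaining target genes of ESCs differed little between the groups, and all overlapped. Hmox1 had 83.9, 67.4 and 80.7 CPM with the vehicle and 75.6, 92.5 and 79.5 with Δ9-THC. Nqo1 had 50.0, 62.4 and 59.2 CPM with the vehicle and 62.9, 50.0 and 53.7 with Δ9-THC. In both genes the vehicle library that stood apart was mirrored by the exposed library of the same number, the pattern described above for all genes. Txnrd1 (422, 418 and 435 CPM against 444, 449.5 and 434 with Δ9-THC), Srxn1 (69.1, 68.7 and 73.6 against 68.9, 69.5 and 65.0) and Prdx1 (1044, 1109 and 1167 against 1199, 1132 and 1078) had adjusted p-values of edgeR of 0.236, 0.438 and 0.692.

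**Figure D2:**
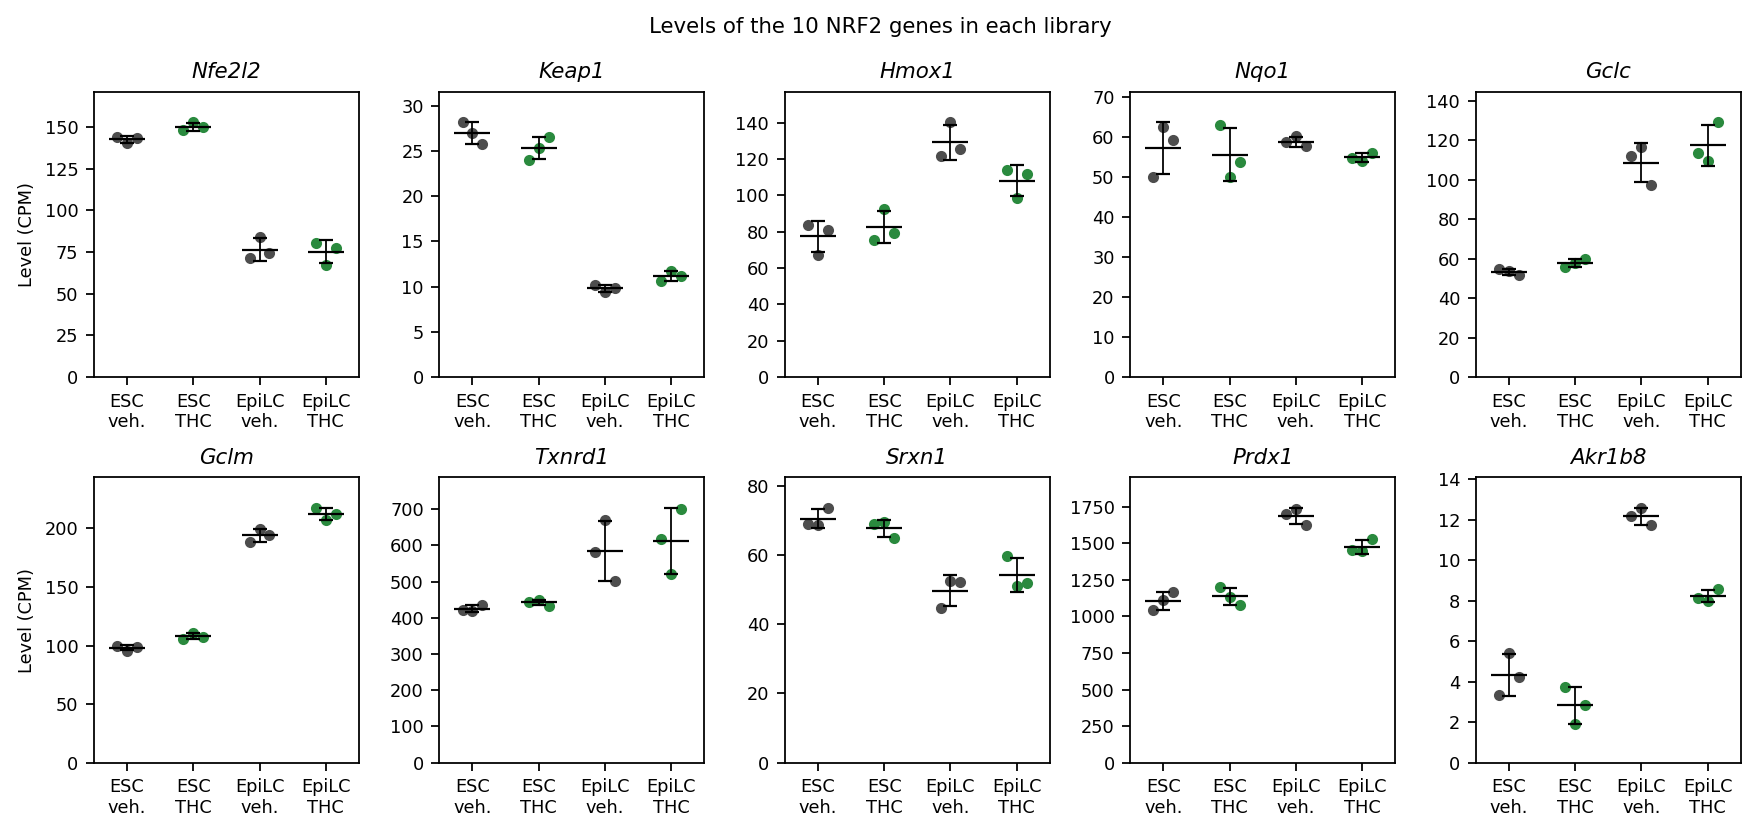
Level in CPM (y axis, from 0) of each of the 10 genes in every library of the 4 groups (x axis), with vehicle libraries in grey, Δ9-THC libraries in green and a black line and bar for the mean ± SD (n = 3). Akr1b8, Prdx1, Hmox1 and Nqo1 have all exposed EpiLC libraries below the vehicle EpiLC libraries, and Gclm has all exposed libraries above the vehicle libraries in both cell types.

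In EpiLCs, too, 0 of the 10 genes passed the threshold, and neither did any other gene of the table (0% of 13717, edgeR, Benjamini-Hochberg adjusted p at most 0.05). With an unadjusted p-value under 0.05 there were 4 of the 10 genes and 15.1% of all genes. DESeq2 called 87 of the genes of the EpiLC table and 1 of the 10, Akr1b8. The exposed libraries were all above the vehicle libraries for 2 of the 10 genes and all below for 4, against 11.2% and 10.6% of all genes. The median log2(fold-change) was 0.021 for the 10 genes and 0.0030 for all genes.

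Akr1b8 had the smallest p-value of the 10 genes in EpiLCs. It had 12.2, 12.6 and 11.7 CPM with the vehicle and 8.15, 7.99 and 8.57 with Δ9-THC, so that the exposed libraries were all lower, by more than the spread within either group. That spread was itself small: the SD was 3.46% of the mean with the vehicle and 3.65% with Δ9-THC, where counting error alone at these mean counts is 5.43% and 6.71%. The log2(fold-change) was -0.56, with a 95% interval of -0.74 to -0.38 (SE 0.074). In edgeR's test its unadjusted p-value, 0.000172, ranked 11 among all genes of the table, and the adjusted p-value was 0.144, which was also the smallest of the table. DESeq2 gave a log2(fold-change) of -0.56 with an adjusted p-value of 0.00951. With replicate number as a block, edgeR gave a log2(fold-change) of -0.56 and an adjusted p-value of 0.999. With any 1 library left out, the change was -0.60 to -0.54 and the adjusted p-value of edgeR 0.339 to 0.452. Txnip, described below, had the same adjusted p-values in these fits, since the adjustment runs over the whole table. Akr1b8 belongs to a family of close Akr1b paralogs, so reads shared with them are missing from these counts of uniquely mapped reads.

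Hmox1, Prdx1 and Nqo1 were the other genes whose exposed EpiLC libraries were all lower. Hmox1 had 122, 140.1 and 125 CPM with the vehicle and 114, 98.5 and 112 with Δ9-THC, giving a log2(fold-change) of -0.26 (edgeR, SE 0.086, adjusted p = 0.251). Prdx1 had 1701, 1733 and 1626 CPM with the vehicle and 1455, 1444 and 1528 with Δ9-THC, giving a log2(fold-change) of -0.19 (edgeR, SE 0.072, adjusted p = 0.289). Nqo1 had 58.6, 60.1 and 57.6 CPM with the vehicle and 54.7, 53.9 and 56.0 with Δ9-THC, giving a log2(fold-change) of -0.10 (edgeR, SE 0.053, adjusted p = 0.427). The gap between the groups of Nqo1 was small against its level. Its SD, 2.16% of the mean with the vehicle and 1.90% with Δ9-THC, was below the counting error of 2.47% and 2.60%.

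Gclm and Keap1 had all exposed EpiLC libraries higher. Gclm had 188, 199 and 195 CPM with the vehicle and 218, 207 and 212 with Δ9-THC, giving a log2(fold-change) of 0.13 (edgeR, SE 0.056, adjusted p = 0.341), close to its value of 0.14 in ESCs. Keap1 had 10.2, 9.46 and 9.83 CPM with the vehicle and 10.6, 11.7 and 11.2 with Δ9-THC, giving a log2(fold-change) of 0.19 (edgeR, SE 0.077, adjusted p = 0.331). Its SD, 3.94% of the mean with the vehicle and 4.86% with Δ9-THC, was below the counting error of 6.04% and 5.76%. Keap1 shares 10.87% of its exon bases with the overlapping gene Gm16754, and reads were counted without strand.

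Nfe2l2, Gclc, Txnrd1 and Srxn1 overlapped between the groups of EpiLCs. Nfe2l2 had 71.2, 84.0 and 74.3 CPM with the vehicle and 80.4, 67.3 and 77.6 with Δ9-THC (log2(fold-change) -0.027, edgeR, adjusted p = 0.921). Gclc had 112, 117 and 97.6 CPM with the vehicle and 113, 109.7 and 129 with Δ9-THC (log2(fold-change) 0.11, edgeR, adjusted p = 0.627), and the Gclm to Gclc ratios of the groups overlapped. Txnrd1 varied most between libraries of one group, with 581, 669 and 502 CPM with the vehicle and 617, 520.2 and 702 with Δ9-THC, and its 95% interval of -0.28 to 0.42 was the widest of these 4 genes. Srxn1 had 44.6, 52.5 and 52.1 CPM with the vehicle and 59.8, 51.0 and 51.8 with Δ9-THC (log2(fold-change) 0.12, edgeR, adjusted p = 0.582).

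**Figure D3:**
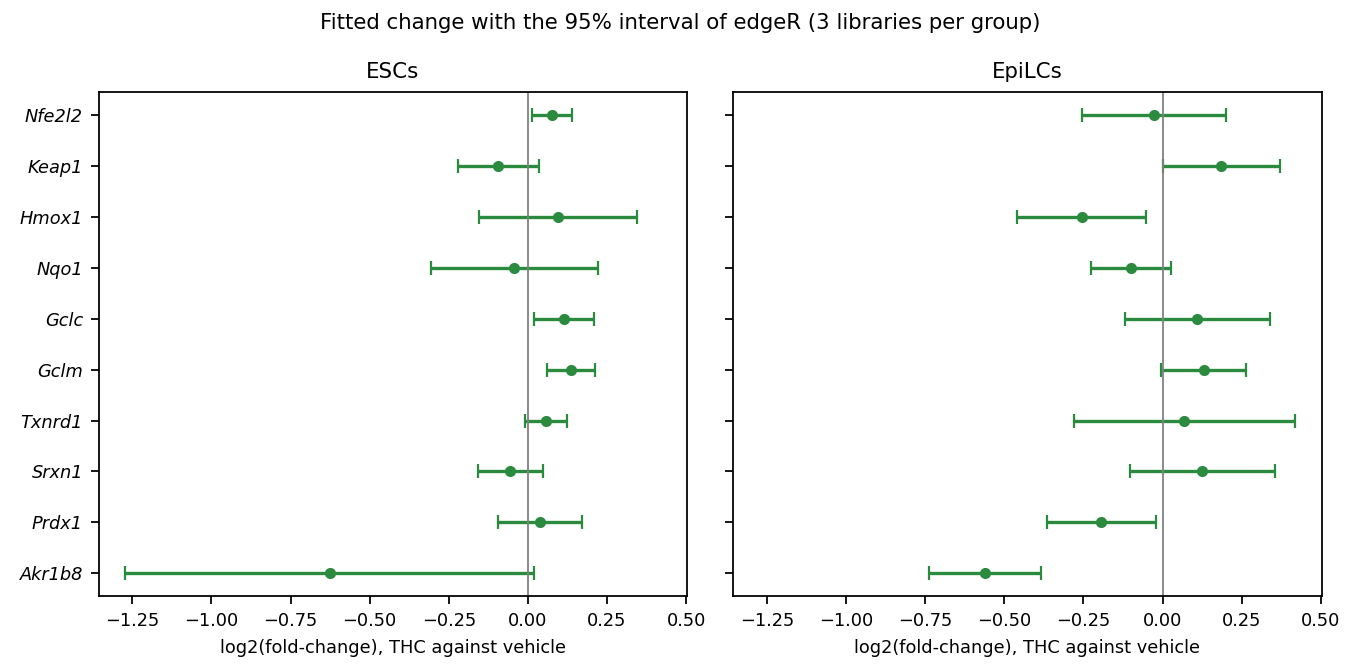
Fitted log2(fold-change) of each of the 10 genes with Δ9-THC against the vehicle (x axis) in ESCs (left) and EpiLCs (right), with 95% intervals of edgeR for 1 gene each and a line at 0. The interval of Akr1b8 in EpiLCs, -0.74 to -0.38, is the one farthest from 0, and its interval in ESCs is the widest, from -1.27 to 0.020.

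Whether the effect of Δ9-THC differed between EpiLCs and ESCs was tested as an interaction over the 12 libraries. Of the 12410 genes tested, 0.0322% passed (4 genes, Myo6, Cul9, Dzip1 and Zfp36), and 0 of the 10 did, with adjusted p-values of edgeR from 0.214 to 0.980. Of the 10 genes 3, and of all genes 13.7%, had an unadjusted p-value under 0.05. Keap1 had the smallest adjusted p-value, with a difference between the log2(fold-changes) of 0.29 (edgeR, SE 0.097, adjusted p = 0.214), followed by Hmox1 with -0.33 (edgeR, SE 0.14, adjusted p = 0.327) and Prdx1 with -0.22 (edgeR, SE 0.094, adjusted p = 0.339). For Gclm, Gclc and Akr1b8 the differences were 0.010, 0.011 and 0.078, with 95% intervals of -0.14 to 0.16, -0.22 to 0.25 and -0.51 to 0.67.

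The fitted changes moved with GC content. Across genes, which are not independent replicates, Spearman's rho between the log2(fold-change) and the GC content of the longest transcript was -0.54 in ESCs (13083 genes) and -0.30 in EpiLCs (13696 genes). The GC content of the 10 genes ran from 42.1% for Gclm to 58.0% for Keap1. With smooth trends of each library in GC content and exon length removed, the log2(fold-change) of Gclm was 0.038 in ESCs (edgeR, adjusted p = 0.662) and 0.026 in EpiLCs (edgeR, adjusted p = 0.900), and that of Nfe2l2 in ESCs was 0.031 (edgeR, adjusted p = 0.606). In ESCs Keap1 went from -0.093 to 0.029 and Prdx1 from 0.038 to -0.073. Akr1b8 hardly moved, at -0.63 in ESCs and -0.51 in EpiLCs without the trends (edgeR, adjusted p = 0.266 and 0.212). In ESCs 1 feature, ENSMUSG00000119584, also took 2.46% to 3.19% of the counts of the exposed libraries and 0.477% to 0.639% of those of the vehicle libraries, and its part in the results was not tested beyond leaving it out of the table.

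**Figure D4:**
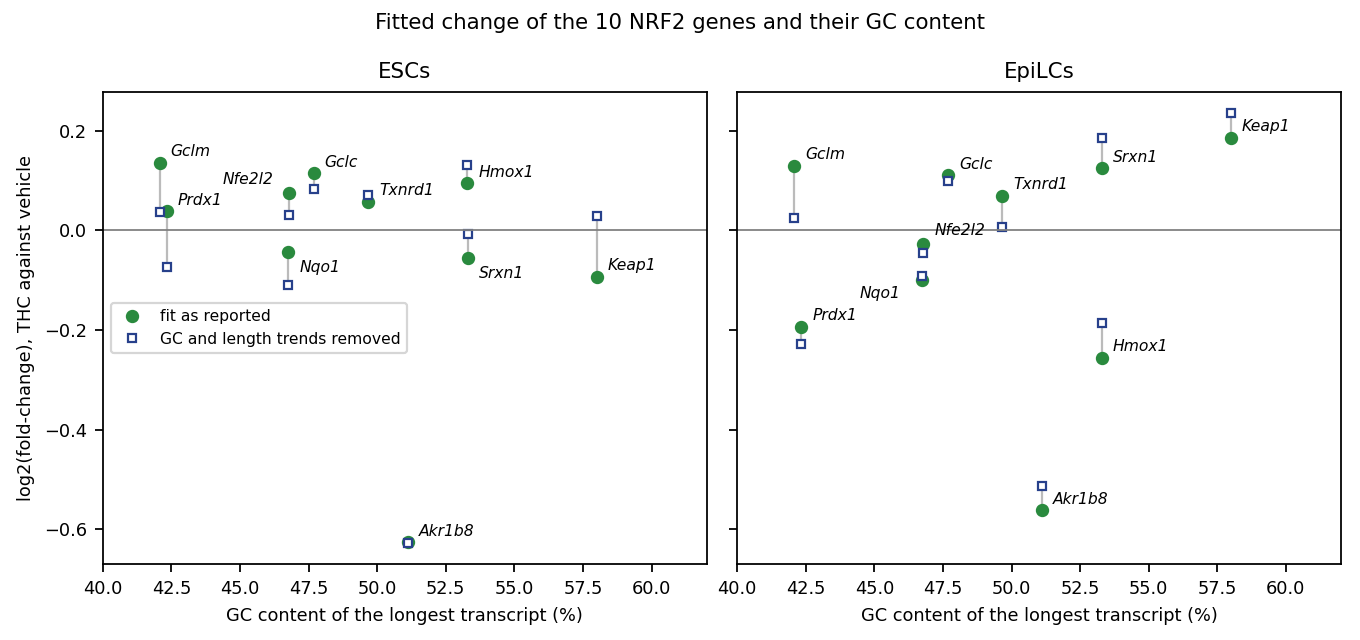
Fitted log2(fold-change) with Δ9-THC (y axis) of the 10 genes against the GC content of their longest transcript in percent (x axis), in ESCs (left) and EpiLCs (right), as fitted (filled circles) and with GC and length trends removed (open squares), joined by a grey line for each gene. Gclm, at the left edge with 42.1% GC, drops from 0.14 to 0.038 in ESCs, while Akr1b8 stays at -0.63.

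Beyond the 10 genes, 8 lists of related function hold 84 genes, with the 10 among them, of which 79 were in the ESC table and 80 in the EpiLC table. In ESCs 1 gene rose and 2 fell (edgeR, Benjamini-Hochberg adjusted p at most 0.05), and 76 did not pass. Of all 13104 genes of the ESC table, 6.91% passed. Among the 79 listed genes, 27 had a log2(fold-change) above 0 and 52 below it, with a median of -0.035 against 0.0041 for all genes. In EpiLCs 0 of 80 passed, and 0% of all 13717 genes. There 25 were above 0 and 55 below, and the median was -0.070 against 0.0030. These counts describe lists that were chosen with earlier results known.

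The genes that passed in ESCs were a partner of KEAP1 and a pair of redox enzymes. Cul3, the scaffold of the ligase that marks NRF2, rose from 202, 201 and 189.8 CPM to 218, 220.0 and 233, giving a log2(fold-change) of 0.18 (edgeR, SE 0.039, adjusted p = 0.0475). Txnrd2, the mitochondrial thioredoxin reductase, fell from 7.37, 7.62 and 7.49 CPM to 6.16, 5.99 and 6.16, giving a log2(fold-change) of -0.30 (edgeR, SE 0.055, adjusted p = 0.0368). Gstm2, a glutathione transferase, fell from 33.7, 36.0 and 36.1 CPM to 31.7, 29.6 and 29.7, giving a log2(fold-change) of -0.22 (edgeR, SE 0.046, adjusted p = 0.0467). The groups of all 3 genes were apart, but the adjusted p-values lie near the threshold. The counts of Txnrd2 and Gstm2 are less certain where their reads also match other genes, and Gstm2 has close paralogs. With GC and length trends removed none of the 3 passed (edgeR, adjusted p = 0.867 for Cul3, 0.160 for Txnrd2 and 0.0922 for Gstm2), and none passed in any fit that left out 1 library. Without the trends the log2(fold-change) was 0.010 for Cul3, -0.22 for Txnrd2 and -0.21 for Gstm2. In EpiLCs Txnrd2 had a log2(fold-change) of -0.28 and Gstm2 of -0.19, with adjusted p-values of edgeR of 0.239 and 0.348, and Cul3 of -0.011.

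Among the other regulators, Nfe2l1, a relative of NRF2, had the largest decrease in ESCs, at -0.14 (edgeR, adjusted p = 0.0925), and Mafk, a small MAF partner, in EpiLCs, at -0.32 (edgeR, adjusted p = 0.202). In glutathione synthesis and recycling, where 0 of 8 genes passed in either cell type, the largest increase in ESCs was 0.15 for glutathione reductase, Gsr, and the largest decrease -0.28 for Chac1, which degrades glutathione (edgeR, adjusted p = 0.183 and 0.160). In EpiLCs they were 0.17 for Ggt7 and -0.18 for Slc3a2 (edgeR, adjusted p = 0.702 and 0.297). Of the glutathione peroxidases and transferases, 1 of 13 passed in ESCs, Gstm2, and 0 of 15 in EpiLCs. Mgst3, a microsomal transferase, had the largest decreases of this list in both cell types, at -0.54 in ESCs and -0.32 in EpiLCs (edgeR, adjusted p = 0.0666 and 0.282). The largest increases were 0.19 for the peroxidase gene Gpx8 in ESCs and 0.088 for the microsomal transferase gene Mgst1 in EpiLCs (edgeR, adjusted p = 0.651 and 0.810).

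In the thioredoxin list, 1 of 15 genes passed in ESCs and 0 of 15 in EpiLCs. The largest increase in ESCs was that of another thioredoxin reductase gene, Txnrd3, at 0.075 (edgeR, adjusted p = 0.557). Txnip, which binds and inhibits thioredoxin and is also induced by glucose, had 115, 122 and 149.6 CPM with the vehicle and 235, 225 and 181 with Δ9-THC in EpiLCs. All exposed libraries were higher, with a log2(fold-change) of 0.73 (edgeR, SE 0.14, adjusted p = 0.144), and DESeq2 gave 0.72 with an adjusted p-value of 0.000637. With replicate number as a block, edgeR gave an adjusted p-value of 0.999, and with the GC and length trends removed 0.212. The log2(fold-change) was 0.73 in both of these fits. With any 1 library left out, it was 0.64 to 0.85, with adjusted p-values of edgeR of 0.339 to 0.452. Akr1b8 had the same adjusted p-values in each of these fits. Of the exon bases of Txnip, 19.4% are shared with the overlapping gene Gm15441. In ESCs Txnip was at -0.063 (edgeR, adjusted p = 0.542), and the test of the difference between the cell types gave 0.81 (edgeR, adjusted p = 0.0710).

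All 7 genes of NADPH supply, which reduces both glutathione and thioredoxin, had a log2(fold-change) below 0 in ESCs, and none passed the test. Their median was -0.098, against 0.0041 for all genes. Whether this shared direction follows the relation of the changes to GC content (Spearman's rho -0.54 in ESCs) was not tested. The lowest was Pgls of the pentose phosphate pathway, at -0.24 (edgeR, adjusted p = 0.102), and the highest was the isocitrate dehydrogenase gene Idh1, at -0.012 (edgeR, adjusted p = 0.899). In EpiLCs 5 of the 7 were below 0, from Taldo1 at -0.29 (edgeR, adjusted p = 0.200) to the malic enzyme Me1 at 0.19 (edgeR, adjusted p = 0.350). In detoxification, 0 of 13 genes passed in ESCs and 0 of 12 in EpiLCs, and Akr1b8 had the largest decrease in both. The largest increases were those of Ugdh in ESCs, at 0.20 (edgeR, adjusted p = 0.0592), and of the exporter Abcc4 in EpiLCs, at 0.21 (edgeR, adjusted p = 0.250).

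Of the 8 genes of haem and iron handling, 0 passed in either cell type. Hmox1 had the largest increase of the list in ESCs, while Hmox2, the constitutive haem oxygenase, had the largest decrease in EpiLCs, at -0.29 (edgeR, adjusted p = 0.399). Fech, the enzyme of the last step of haem synthesis, had the largest increase in EpiLCs, at 0.094 (edgeR, adjusted p = 0.665). The ferritin light chain Ftl1 had the largest decrease in ESCs, at -0.17 (edgeR, adjusted p = 0.190). Of the enzymes of superoxide and peroxide, 0 of 4 passed in either cell type. The superoxide dismutase Sod1 was lowest in ESCs, at -0.16 (edgeR, adjusted p = 0.281), and Park7, a protein that senses oxidation, in EpiLCs, at -0.22 (edgeR, adjusted p = 0.322). The highest were Park7 in ESCs, at 0.025, and the catalase gene Cat in EpiLCs, at 0.043 (edgeR, adjusted p = 0.834 and 0.778).

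**Figure D5:**
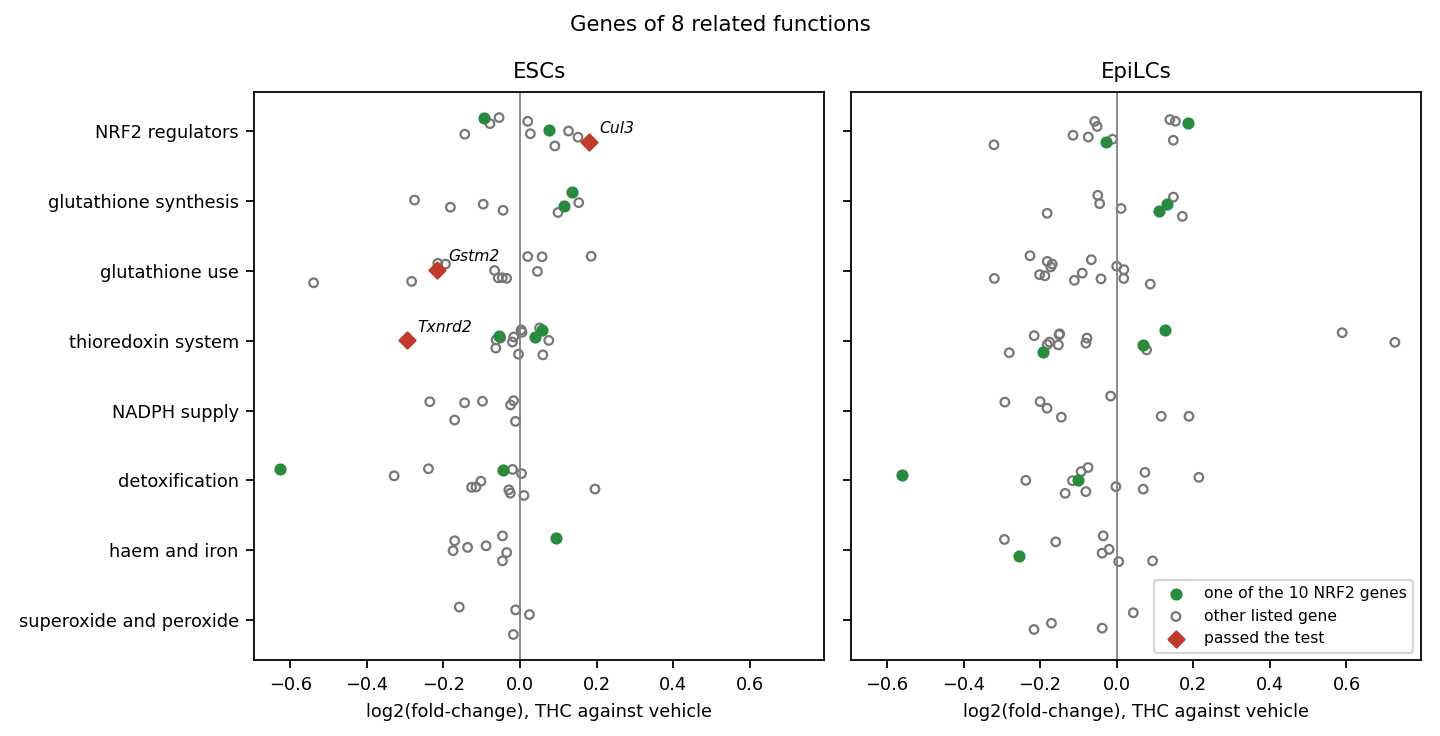
Fitted log2(fold-change) with Δ9-THC (x axis) of the genes of 8 functions (rows) in ESCs (left) and EpiLCs (right), with the 10 NRF2 genes in filled green, other genes as open circles and genes that passed the test as red diamonds. The vertical scatter within a row has no meaning. Cul3, Gstm2 and Txnrd2 passed in ESCs, none passed in EpiLCs, and Txnip lies farthest to the right, at 0.73.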

How the data were processed

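The 12 libraries cover mouse ESCs and EpiLCs, 3 per cell type and exposure. Libraries of the derived germ cells were not analysed here. The authors prepared poly(A) libraries with either of 2 kits (not named per library in the sources used here) and aligned the reads with STAR. Reads with a single match were counted over exons by HTSeq, unstranded, and genes of low count were dropped. The deposited values are whole-number counts that the authors then adjusted with ComBat-seq, in a separate table per cell type and not scaled for library size. The batches and tool versions are not given in the sources used here, except bcl2fastq 2.19.1.403 in the submitters' processing notes, and the genome is named both as mm10 and as GRCm39. Columns were assigned to libraries by label, and 0 were left over. At totals of 23427551 to 32096698 counts, the SD of the adjusted values was below the counting error of the mean count in 8 of the 40 combinations of the 10 genes and 4 groups, and the lowest count of a library was 57, for Akr1b8 in ESCs.

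Counts were tested per table with edgeR 4.0.16 in R 4.3.3 (quasi-likelihood, TMM, totals of more than 10 counts, Benjamini-Hochberg over the table, threshold 0.05). SEs follow from the F statistic. The interaction used 4 groups and 12410 genes. Gene names, positions, lengths and GC content came from GENCODE M21 (release 21, GRCm38), matched by identifier; 13083 of the 13104 ESC genes and 13696 of the 13717 EpiLC genes had a GC content. Promoter windows came from RefSeq. The fit was also run on simulated data with independent libraries, which cannot check the error rates for the mirrored libraries here. Alternatives were RLE, no filter, a minimum of 10 counts per library, DESeq2 1.42.0, all 12 libraries in 1 fit, a replicate block, offsets for GC and length (splines with 5 degrees of freedom, prior count 2 for log2 CPM), each library left out, and ENSMUSG00000119584 left out; TMM over the 12 libraries for the ratios between cell types was chosen after seeing the data. Python 3.11.15, pandas 2.3.3 and matplotlib 3.10.9 made the tables and figures.

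The members and the 8 lists were chosen with earlier results of these data known. Named genes are the 10 members, every listed gene that passed, and the extreme gene in either direction of each list and cell type, by fitted change. Genes of the interaction and of counts of 5 or fewer were named after their values were seen.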

Additional observations from a re-analysis of the deposited data

How the results depend on the processing

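The log2(fold-changes) of the 10 genes and their differences between cell types kept their direction and their side of the threshold in 440 of 469 alternative values, turned sign in 28 and passed in 1, Akr1b8 in EpiLCs with DESeq2 (-0.56). The count of the 10 genes called was 0 in all other fits. The 906 calls of ESCs became 31 with all 12 libraries in 1 fit, 2 with GC and length trends removed, and 0 to 1 with any 1 library left out. The 3 calls among the listed genes of ESCs became 5 with DESeq2 (Cul3, Ephx1, Gstm1, Mgst3 and Ugdh) and 0 with all 12 libraries, with the trends removed and with any 1 library left out. In EpiLCs, DESeq2 called 87 genes and 2 listed genes (Akr1b8 and Txnip), and the fit of all 12 libraries called 411 genes and 2 listed genes (Taldo1 and Txnip). The 4 calls of the interaction became 0 with the trends removed and 0 with any 1 library left out. The cause of these changes was not tested.

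Same-numbered vehicle and exposed libraries deviated in opposite directions, with correlations of -0.987 to -0.977 in ESCs and -0.985 to -0.979 in EpiLCs. For different numbers the correlations were 0.22 to 0.70, so the numbers link the libraries strongly, as mirror images. A positive correlation had been required to take them as pairs, and no sample correlated best with its own number. That requirement does not make the libraries independent. With opposite deviations, SEs and p-values of the fits without a replicate block tend to be too small. Under the replicate block, 5 genes and 0 listed genes were called in ESCs, 0 in EpiLCs and 0 in the interaction. For Cul3, Gstm2 and Txnrd2 in ESCs the adjusted p-values of edgeR with the block were 0.415, 0.429 and 0.482. With the block and the trends removed, 3 genes and 0 listed genes were called in ESCs.

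With the trends removed, Keap1 was at 0.029 in ESCs and Prdx1 at -0.073 (0.030 and -0.073 with the block), and the differences between cell types of Nqo1, Gclm and Txnrd1 were 0.026, -0.0034 and -0.062. With 1 library left out at a time, the values that turned sign ranged from -0.0021 to 0.075 for Prdx1 and -0.14 to 0.029 for Nqo1 in ESCs, and from -0.092 to 0.046 for Nfe2l2 and -0.042 to 0.18 for Txnrd1 in EpiLCs. For the difference between cell types they ranged from -0.11 to 0.059 for Nqo1, -0.064 to 0.062 for Gclc, -0.010 to 0.031 for Gclm, -0.074 to 0.13 for Txnrd1 and -0.16 to 0.33 for Akr1b8. Of 100 alternative level ratios of EpiLCs to ESCs, 1 turned sign, that of Nqo1, which ranged from -0.048 to 0.11 on the log2 scale with 1 library left out. The other 99 kept their sign and moved by less than the spread between replicates.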
